A study of Danio rerio with 8 samples.

Results

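The genes described here are 10 zebrafish genes of venous, lymphatic and scavenger endothelium, measured by RNA sequencing in hearts of control and zfpm1 mutant fish. They are lyve1a, lyve1b, stab1, stab2, mrc1a, plvapa, plvapb, flt4, ephb4a and prox1a, 10 of the 31953 gene IDs in the count files. The gene table gives 3 of them only under a capital symbol (MRC1 for mrc1a, FLT4 for flt4 and PROX1 for prox1a). The list was drawn up with the values of these hearts already known. Levels and fold changes of the 10 genes are therefore a description, and no test of them is drawn from the comparison of the genotypes.

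All libraries came from Danio rerio of the TU strain. There were 3 libraries from control hearts and 3 from zfpm1 mutant hearts at 21 days post fertilisation (dpf), and 1 library of each genotype labelled as whole embryos at 36 hours post fertilisation (hpf). zfpm1 encodes a cofactor of GATA transcription factors, and the study sought genes acting downstream of it in embryos and maturing hearts. The labels used here name neither the mutant allele nor the origin of the control fish, and they do not say whether a library is 1 heart or a pool. The spread between libraries may thus be partly technical.

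Lymphatic vessels arise largely from veins. The transcription factor Prox1 sets lymphatic identity, the growth factor Vegfc acts through the receptor Flt4 to drive lymphatic sprouting, and the receptor Ephb4 on veins faces ephrin-B2 on arteries. Scavenger endothelium takes up waste molecules from the blood through the stabilins Stab1 and Stab2 and the mannose receptor Mrc1, while Lyve1 binds hyaluronan. Plvap builds the diaphragms that close the pores of fenestrated capillaries and the necks of caveolae.

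Each heart library held between 7614329 and 9909966 reads assigned to genes, and the first principal component held 61.5% of the variance. Correlations between heart libraries were 0.926 to 0.957 within a genotype and 0.808 to 0.878 between genotypes. Control replicate 1 and the library labelled mutant embryo had the same total over all lines of their files, 22649056, and mutant replicate 1 and the library labelled control embryo likewise shared 19276348. Over 12894 and 14361 genes the heart count was at or below the embryo-labelled count in 98.8% of genes in each of these pairs. In the other pairings of an embryo-labelled with a heart library this share was 87.8% to 97.0%. The 95th percentile of the ratio of heart to embryo-labelled count was 0.628 and 0.632 in the pairs that share a total. It was 0.849 to 1.51 in the other pairings. Reads not uniquely aligned were also equal in number within each pair that shares a total, 2907502 and 2130930. Within each pair that shares a total the labels give another tissue and another genotype, so results are also given without both heart libraries numbered 1. The targeted transcript, zfpm1, stood at 51.3, 42.4 and 53.3 CPM (counts scaled to library size by TMM) in control replicates 1 to 3 and at 62.4, 53.0 and 92.1 CPM in mutant replicates 1 to 3, with a log2 fold change of 0.50 (SE 0.23, edgeR adjusted p 0.241). These counts do not check the genotype labels. Myocardial markers took 4.48% to 5.93% of gene counts in control and 2.88% to 4.27% in mutant hearts, and MYL7 and MYH7, muscle myosin genes, were their most abundant members. MYL7 stood at 12014 ± 1066 CPM (SD, n = 3) in controls and MYH7 at 19438 ± 6314 CPM, with 7182 ± 1756 and 11946 ± 3548 CPM in mutants.

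Expression of 3 of the 10 genes, lyve1a, plvapa and plvapb, was far higher in mutant than in control hearts, and 6 others had overlapping groups. The remaining gene, lyve1b, had 15 counts in all over both groups. Of the 10 genes 9 passed the filter on low counts. Those 3 had an adjusted p under 0.05, all higher in mutants, in the edgeR fit over 16707 genes, where 7.02% of genes were called higher, 2.42% lower and 9.43% in either direction. Groups did not overlap in the same 3 genes, against 29.7% of all tested genes. Since the genes were chosen on this comparison, nothing is read from these counts. In whole hearts a change in the number of cells of a type and a change in RNA per cell cannot be told apart.

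**Figure D1:**
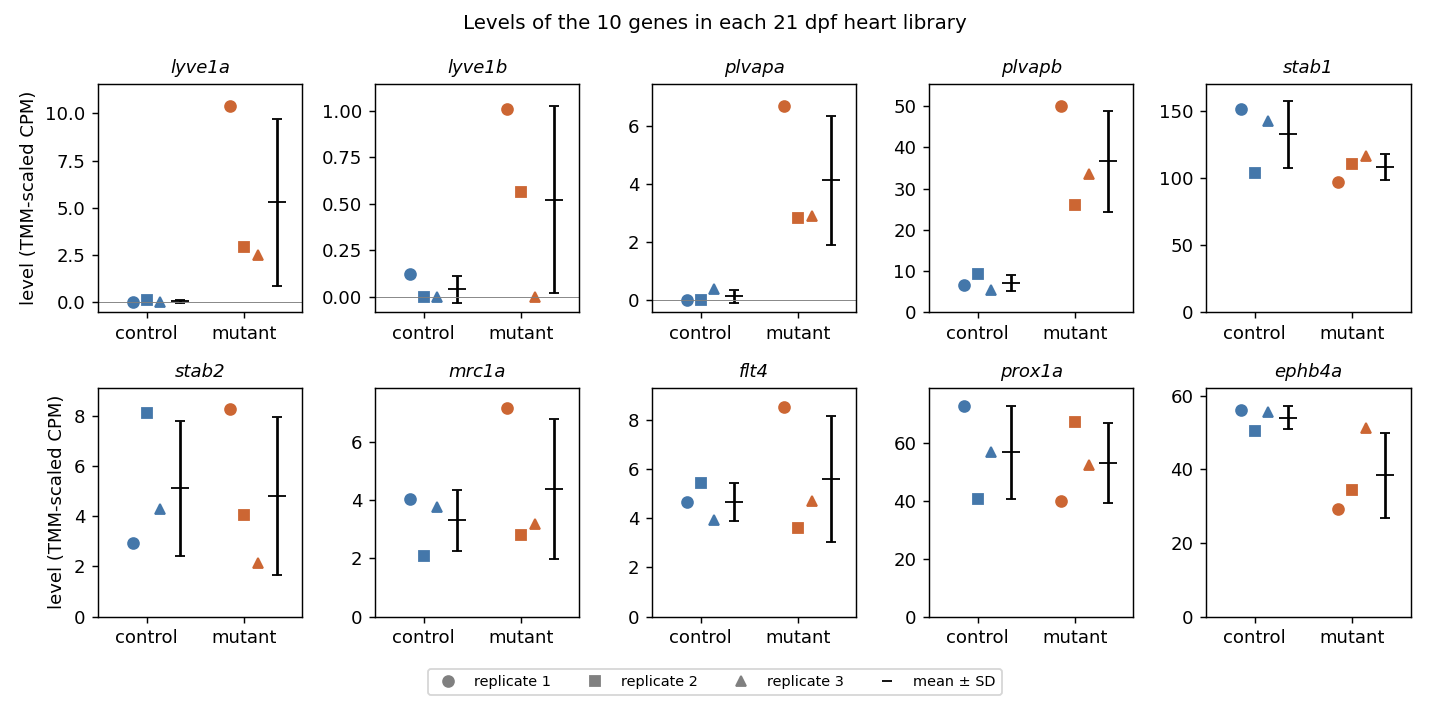
Levels of the 10 genes (y axis, TMM-scaled CPM, linear and starting at or just below 0) in each heart library, with control and mutant hearts on the x axis, a symbol per replicate and the mean ± SD (n = 3) beside them. In lyve1a, plvapa and plvapb all mutant libraries lie above all control libraries, and mutant replicate 1 is the highest library in each of these 3 genes.

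Among the hyaluronan receptors, lyve1a (ENSDARG00000075833) was almost without reads in control hearts, with 0, 1 and 0 counts in control replicates 1 to 3, and had 93, 26 and 26 counts in mutant replicates 1 to 3. These are levels of 0, 0.123 and 0 CPM in controls and of 10.4, 2.93 and 2.50 CPM in mutants. Every mutant library lay above every control library, and mutant replicate 1 was more than 3 times as high as the other mutant hearts. The fitted log2 fold change was 6.57 (SE 1.07), a size that depends on the single control count. The ratio of the summed counts, scaled to library size, was 124 with an exact 95% counting interval of 22.0 to 4950. Without mutant replicate 1 the log2 fold change was 5.63, and without both libraries numbered 1 it was 5.17 (SE 1.09). Without control replicate 2, which holds the single control count, the fit gave 8.54. No control count is left in that fit, so the data set no finite size there.

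Its paralog lyve1b (ENSDARG00000062483), which marks lymphatic and some venous endothelium in zebrafish embryos, had 1, 0 and 0 counts in control and 9, 5 and 0 counts in mutant replicates 1 to 3. It did not pass the filter and was not tested in the main fit. In the fit without a filter it was tested and not called. The groups overlapped at 0 counts, and the ratio of summed counts was 12.0 with a counting interval of 1.83 to 508. At this depth a level of lyve1b in control hearts was not distinguishable from none. Of the reads of both lyve1 paralogs together, lyve1a held 91.2%, 83.9% and 100% in mutant replicates 1 to 3.

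Both plvap genes stood higher in mutant hearts. Levels of plvapb (ENSDARG00000045003) were 6.61, 9.37 and 5.42 CPM in control and 50.02, 26.1 and 33.6 CPM in mutant replicates 1 to 3. The lowest mutant library was thus well above the highest control library. Mean levels were 7.13 ± 2.03 and 36.6 ± 12.2 CPM (SD over 3 libraries), and the log2 fold change was 2.36 (SE 0.32), on 173 counts over control and 1028 over mutant hearts. It lay between 2.08 (without mutant replicate 1) and 2.59 (without control replicate 2) with 1 library left out, and at 2.03 (SE 0.31) without both libraries numbered 1.

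The second diaphragm gene, plvapa (ENSDARG00000076972), had 0, 0 and 3 counts in control and 60, 25 and 30 counts in mutant replicates 1 to 3. In CPM the mutants stood at 6.71, 2.81 and 2.89 and control replicate 3 at 0.378. All control libraries lay below all mutant libraries, and again mutant replicate 1 was the highest. The ratio of summed counts was 32.9 with an exact 95% counting interval of 10.98 to 162, and the fitted log2 fold change was 4.90 (SE 0.96). All control counts came from replicate 3, and without that library the fitted log2 fold change was 8.20. The controls then hold no count, so the data set no finite size there. The gene no longer met the threshold without control replicate 2 (log2 fold change 4.36) or without both libraries numbered 1 (log2 fold change 3.84, SE 1.02). Of the reads of both plvap paralogs, plvapa held 0%, 0% and 6.52% in control and 11.8%, 9.73% and 7.92% in mutant replicates 1 to 3. The highest control share, 6.52%, rests on 3 plvapa counts and lies close to the lowest mutant share. A difference in share was not tested.

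The stabilin genes did not follow the lyve1a and plvap pattern. stab1 (ENSDARG00000076484), a scavenger receptor also made by macrophages, stood at 151, 104 and 142 CPM in control and at 97.1, 111 and 116 CPM in mutant replicates 1 to 3. The groups overlapped, since control replicate 2 lay below mutant replicates 2 and 3. Means were 132 ± 25.1 and 108 ± 9.81 CPM, a log2 fold change of -0.29 (SE 0.20) with a 95% interval of -0.74 to 0.15. For stab2 (ENSDARG00000045748), a receptor for hyaluronan and other waste molecules, control replicates 1 to 3 had 24, 66 and 34 counts and mutant replicates 74, 36 and 22. Control replicate 2 and mutant replicate 1 were the high libraries of their groups at 8.14 and 8.28 CPM. Its log2 fold change was -0.09 (SE 0.56), with a wide 95% interval of -1.37 to 1.18, and it was -0.99 (SE 0.55) without both libraries numbered 1 and 0.40 without control replicate 2. The direction of stab2 is therefore set by single libraries.

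The mannose receptor gene mrc1a (ENSDARG00000102100), which marks veins and lymphatics in zebrafish, stood at 4.04, 2.10 and 3.78 CPM in control and at 7.16, 2.81 and 3.18 CPM in mutant replicates 1 to 3. Only mutant replicate 1 was above the control range. The log2 fold change of 0.40 (SE 0.49, 95% interval -0.71 to 1.52) became -0.13 without that library. flt4 (ENSDARG00000104453), which encodes the Vegfc receptor, stood at 4.65, 5.43 and 3.91 CPM in control and at 8.505, 3.60 and 4.72 CPM in mutant replicates 1 to 3. Mutant replicate 1 lay above and mutant replicate 2 just below the control range. Its log2 fold change of 0.26 (SE 0.41, 95% interval -0.65 to 1.18) was -0.14 without mutant replicate 1 and -0.15 (SE 0.48) without both libraries numbered 1.

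Levels of ephb4a (ENSDARG00000100725), the venous ephrin receptor, were 56.1, 50.6 and 55.5 CPM in control and 29.3, 34.4 and 51.3 CPM in mutant replicates 1 to 3. Mutant replicates 1 and 2 lay below all controls, while mutant replicate 3 lay within the control range. The log2 fold change was -0.49 (SE 0.23), with a 95% interval of -1.02 to 0.03 and values from -0.77 (without mutant replicate 3) to -0.32 (without mutant replicate 1) with 1 library left out. prox1a (ENSDARG00000055158), the lymphatic regulator, which is also made by heart muscle and liver cells, stood at 73.0, 40.7 and 57.0 CPM in control and at 39.9, 67.4 and 52.4 CPM in mutant replicates 1 to 3. These groups covered nearly the same range. The log2 fold change was -0.10 (SE 0.27, 95% interval -0.70 to 0.51), and 0.31 (SE 0.24) without both libraries numbered 1.

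**Figure D2:**
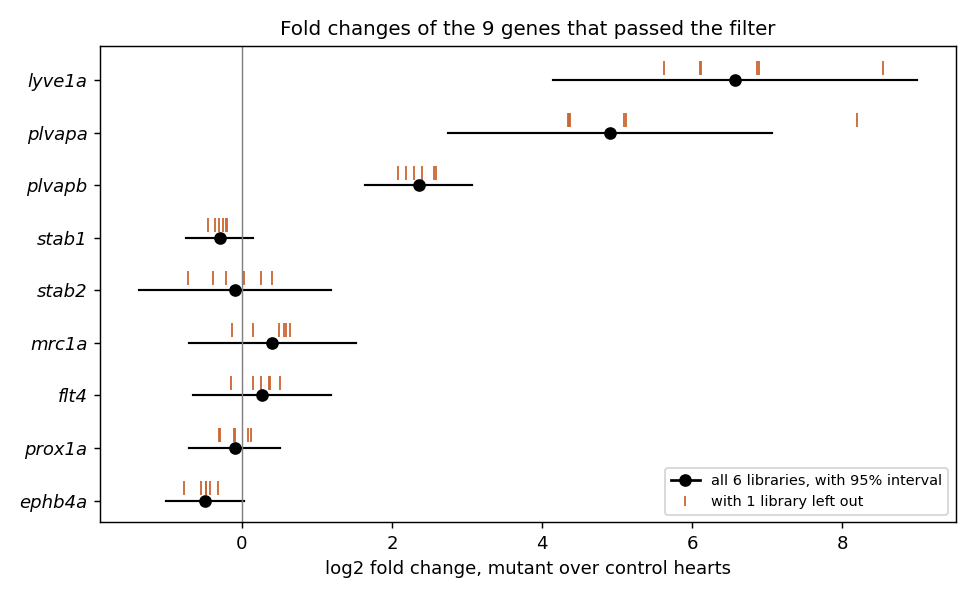
Log2 fold change of mutant over control hearts (x axis) for the 9 genes that passed the filter (y axis), with the point and its 95% interval from all 6 libraries and ticks for the fits with 1 library left out. lyve1a, plvapa and plvapb lie to the right of 0 in every fit, and the ticks of stab2, mrc1a, flt4 and prox1a fall on both sides of 0.

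With 3 libraries in a group, 2 of them stand at an edge in any gene without ties. Counts of genes at an edge are thus high for most libraries, and nothing is read from them. Mutant replicate 1 stood at an edge of its group in all 10 genes. It was the highest mutant library for 7 of them (lyve1a, lyve1b, plvapa, plvapb, stab2, mrc1a and flt4) and the lowest for the other 3 (stab1, prox1a and ephb4a). Control replicate 2 stood at an edge of its group in 8 of the 10 genes (highest in 4 and lowest in 4), and control replicate 1 in 6 (highest in 5 and lowest in 1). Mutant replicate 1 also had the lowest summed level of myocardial markers among the hearts, 24532 CPM against 38102 and 40775 CPM in the other mutants. Its sums of hepatocyte markers (6726 CPM against 6532 and 4949 CPM) and gut epithelium markers (237 CPM against 230 and 80.5 CPM) were close to those of mutant replicate 2 and above those of mutant replicate 3. Single markers of the hepatocyte and gut lists did not share an order. Of 15 tested hepatocyte markers 8 were highest and 5 lowest in mutant replicate 1, with tfa, a transferrin gene, at 2162 CPM against 932 and 841 CPM and apoa1b, an apolipoprotein gene, at 1201 CPM against 2561 and 1928 CPM. Of 6 tested gut markers, 2 were highest there (epcam and cdh1) and 1 was lowest. Its macrophage sum, 1127 CPM against 1334 and 1720 CPM, was the lowest of the mutants. Erythroid sums (175 CPM against 113 and 63.7 CPM) and neuronal sums (55.2 CPM against 26.1 and 38.9 CPM) were highest in mutant replicate 1. Of the tested markers, 7 of 9 erythroid and 6 of 7 neuronal were highest there among the mutants, and 9 of 11 myocardial were lowest. The part of these transcripts in the levels of the 10 genes was not tested.

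The levels were also set against general endothelial transcripts. A list of 16 pan-endothelial genes, with vwf and CAV1 as the most abundant, summed to 2391 ± 319 CPM over controls and 2026 ± 219 CPM over mutants (SD, n = 3 each). Per 1000 CPM of this sum, plvapb stood at 2.41, 4.41 and 2.35 in control and at 25.0, 14.3 and 14.9 in mutant replicates 1 to 3. lyve1a reached 5.20, 1.61 and 1.11 and plvapa 3.36, 1.54 and 1.28 in the mutants, against at most 0.0581 and 0.164 in any control. The pan-endothelial sums ranged only from 1823 to 2744 CPM over all hearts, too little to close the gap between groups in these 3 genes. That their groups stayed apart is therefore no added evidence. For stab1 the same ratio was 55.2 ± 6.37 in control and 53.6 ± 6.30 in mutant hearts, and for ephb4a it was 22.8 ± 2.01 and 18.8 ± 4.04, with overlapping groups in both.

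The other genes of these pathways were called about as often as genes in general. Over 5 lists (other venous and lymphatic genes, growth factor and ephrin signalling, other scavenger receptors, hyaluronan genes and caveola genes) 77 genes were tested, of which 4 rose and 3 fell. That is 9.09% of them, against 9.43% of all genes tested. An unadjusted edgeR p under 0.05 was reached by 30 of the 77 (39.0%), against 23.6% of all genes, and groups did not overlap in 44.2%, against 29.7% of all genes. Their median log2 fold change was 0.08, against -0.01 over all genes. Without control replicate 3 no gene of these lists was called in either direction. The number that rose was 2 without control replicate 1 or control replicate 2. The number that fell was 5 without control replicate 2 and 1 without mutant replicate 1 or mutant replicate 2.

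None of 12 tested venous and lymphatic genes outside the 10 was called in the main edgeR fit or by DESeq2, while 4 had an unadjusted edgeR p under 0.05, 2 higher and 2 lower. With scaling by library size alone 1 was called higher. Groups did not overlap in 6 of the 12, against 29.7% of all tested genes. The most abundant, NFATC1, a transcription factor gene of endocardium and lymphatic valves, stood at 67.5 ± 13.6 CPM in controls against 87.4 ± 46.8 CPM in mutants.

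In the list of VEGF, angiopoietin and ephrin genes 22 were tested, and 1 rose and 1 fell. An ID carrying the symbol NRP2 (ENSDARG00000096546), a co-receptor for Vegfc, rose from 8.66 ± 0.927 to 15.8 ± 0.646 CPM (log2 fold change 0.87, SE 0.22, edgeR adjusted p 0.0422). Leaving out any 1 library, or both numbered 1, ended its call, as did testing without a filter, with adjusted p up to 0.185. The other ID with that symbol (ENSDARG00000038446), looked up after its values were seen, stood at 34.3 ± 7.55 and 22.4 ± 1.01 CPM and was not called (edgeR adjusted p 0.123). An ID carrying EFNB2 (ENSDARG00000074050), the ligand of Ephb4, fell from 49.6 ± 6.33 to 24.4 ± 6.44 CPM (log2 fold change -1.02, SE 0.23, edgeR adjusted p 0.0273). It was no longer called with library size alone, without both libraries numbered 1, or on leaving out control replicate 1 or 3 or mutant replicate 1 or 2 (adjusted p up to 0.107). The other EFNB2 ID (ENSDARG00000020164), also looked up afterwards, lay in the opposite direction at 31.6 ± 1.45 and 53.8 ± 22.3 CPM and was not called (edgeR adjusted p 0.1499). The 2 most abundant genes of the list were not called. The angiopoietin receptor gene tek stood at 173, 193 and 164 CPM in control and at 33.7, 80.1 and 119 CPM in mutant replicates 1 to 3 (log2 fold change -1.19, SE 0.38, edgeR adjusted p 0.0930). Its groups did not overlap, and it was called by DESeq2 and without mutant replicate 3. An ID carrying NRP1 had a log2 fold change of 0.08 (SE 0.19).

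Of 13 other scavenger and endocytic receptor genes 3 rose and none fell, while DESeq2 called 1 lower and 2 had an unadjusted edgeR p under 0.05 and were lower. marco, a macrophage scavenger receptor gene, rose from 96.1 ± 22.0 to 353 ± 192 CPM (log2 fold change 1.88, SE 0.38, edgeR adjusted p 0.0164). ldlra, a low density lipoprotein receptor gene, rose from 4.14 ± 1.15 to 29.3 ± 21.8 CPM (log2 fold change 2.82, SE 0.54, edgeR adjusted p 0.0134), with 53.7 CPM in mutant replicate 1 against 22.5 and 11.7 CPM in the others. LY75, a mannose receptor family gene of antigen-presenting cells, rose from 27.7 ± 3.84 to 51.8 ± 3.51 CPM (log2 fold change 0.91, SE 0.19, edgeR adjusted p 0.0182). These 3 calls were lost without control replicate 3, that of marco also without control replicate 2, and that of LY75 also without control replicate 1 or mutant replicate 2. Their adjusted p reached up to 0.0980. All 3 remained called without both libraries numbered 1. COLEC12, a collectin scavenger receptor gene and after marco the most abundant of the list, had a log2 fold change of 0.79 (SE 0.34, edgeR adjusted p 0.205) and overlapping groups.

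Of 19 hyaluronan genes 1 was called. HAPLN3, which encodes a protein linking hyaluronan to proteoglycans, fell from 18.4 ± 2.93 to 6.47 ± 2.71 CPM (log2 fold change -1.50, SE 0.32, edgeR adjusted p 0.0222). The call ended without both libraries numbered 1 and on leaving out control replicate 1 or 3 or mutant replicate 1 or 2 (adjusted p up to 0.104). The most abundant members, HAPLN1 (ENSDARG00000068516) and the hyaluronan-degrading CEMIP, had log2 fold changes of -0.08 (SE 0.17) and 0.49 (SE 0.20). DESeq2 called 3 hyaluronan genes higher and 1 lower. An unadjusted edgeR p under 0.05 was reached by 8 of the 19 (5 higher and 3 lower), against 23.6% of all genes. Groups did not overlap in 10 of the 19, against 29.7% of all tested genes. Among 11 caveola genes cav3, the muscle caveolin gene, fell from 77.9 ± 9.98 to 38.1 ± 7.39 CPM (log2 fold change -1.03, SE 0.21, edgeR adjusted p 0.0163), a call that ended on leaving out control replicate 2 or 3 (adjusted p up to 0.0682). The abundant vascular members CAV1 and CAVIN2 (ENSDARG00000071196) had log2 fold changes of 0.08 (SE 0.23) and 0.12 (SE 0.21).

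**Figure D3:**
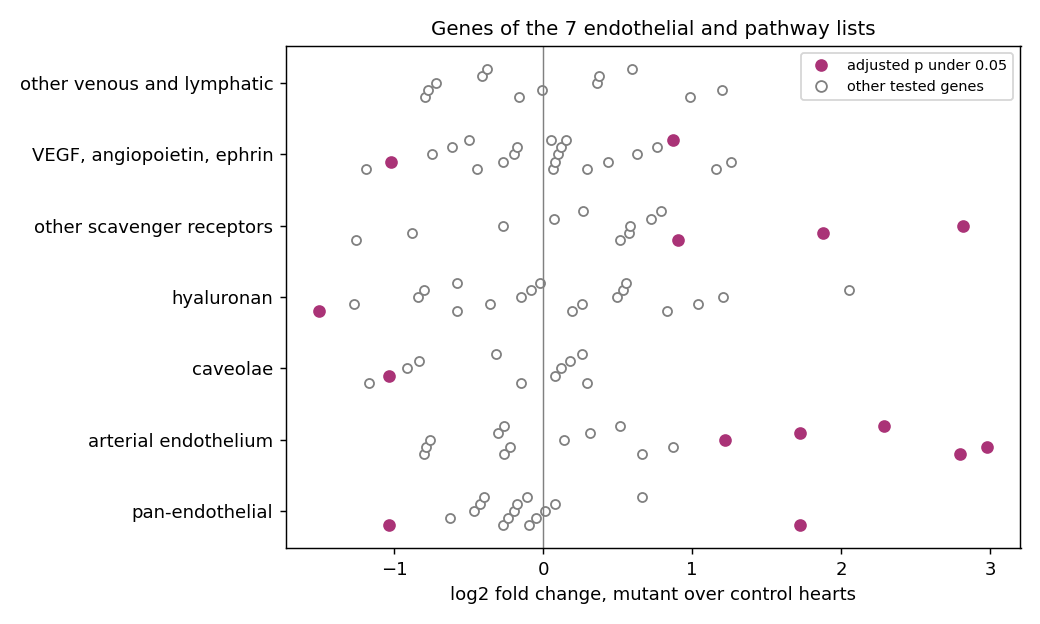
Log2 fold change of mutant over control hearts (x axis) for each tested gene of 7 lists (y axis, with points shifted vertically for legibility), filled where the edgeR adjusted p was under 0.05. The 12 venous and lymphatic genes hold no filled point, and 5 of the arterial genes are filled, all to the right of 0.

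For comparison, 5 of 17 arterial genes (29.4%) rose and none fell, against 7.02% higher and 2.42% lower among all genes tested. DESeq2 also called 5 higher and none lower. Of the 17 genes 10 had a positive log2 fold change, and the median was 0.31. Only HEY2 was lower at an unadjusted edgeR p under 0.05, at 58.9 ± 8.18 and 34.8 ± 12.4 CPM (log2 fold change -0.76, SE 0.26, edgeR adjusted p 0.119). Its groups did not overlap. Both IDs carrying GJA5 were not called, at log2 fold changes of -0.80 (SE 0.36) and -0.78 (SE 0.35). A single arterial gene was called lower without mutant replicate 3. With RLE scaling, with either other filter or with the replicate block, 4 were called higher. HEY1 had 2, 5 and 0 counts in control and 26, 16 and 25 counts in mutant replicates 1 to 3. Its edgeR adjusted p of 0.0497 lay just under the threshold. UNC5B, a guidance receptor gene of arteries, rose from 12.1 ± 5.81 to 58.9 ± 10.3 CPM (log2 fold change 2.29, SE 0.36, edgeR adjusted p 0.00585). An ID carrying CXCR4 (ENSDARG00000041959), a chemokine receptor also made by white blood cells, rose from 3.96 ± 0.953 to 27.6 ± 5.75 CPM (log2 fold change 2.80, SE 0.28, edgeR adjusted p 0.000640). The arterial list names cxcr4a, and the capital symbol does not tell the paralogs apart. The other CXCR4 ID (ENSDARG00000057633) had 0, 4 and 5 counts in control and 10, 6 and 21 in mutant replicates 1 to 3 and was not tested. CLDN5 (ENSDARG00000014059), a tight junction gene, and the Notch ligand gene dlc had log2 fold changes of 1.72 (SE 0.33, edgeR adjusted p 0.0124) and 1.22 (SE 0.26, edgeR adjusted p 0.0192). The other CLDN5 ID (ENSDARG00000043716) was not called (log2 fold change 0.67, SE 0.41, edgeR adjusted p 0.378). The CLDN5 call was lost without control replicate 3 and that of dlc without control replicate 2, control replicate 3, mutant replicate 1 or mutant replicate 2, and only 2 arterial genes were called without control replicate 3. Of the 16 pan-endothelial genes 1 rose, the same CLDN5, and 1 fell, ecscr, from 53.2 ± 13.7 to 26.0 ± 5.17 CPM (edgeR adjusted p 0.0340), a call that ended with library size alone, without both libraries numbered 1 and on leaving out any 1 library other than control replicate 2. vwf stood at 514 ± 10.1 and 334 ± 88.7 CPM (edgeR adjusted p 0.142, called by DESeq2). The difference between venous and arterial lists was not tested.

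Marker transcripts of several other cell types differed between the genotypes. Macrophages express stabilin and mannose receptor genes, and liver and gut vessels are rich in plvap or in scavenger receptors. In these hearts stab1, stab2 and mrc1a were not called (log2 fold changes -0.29, -0.09 and 0.40). Of 19 tested macrophage markers 18 rose, among them marco, given above, and cd74a, from 39.1 to 113 CPM (7 were called without control replicate 3). The summed level of that list was 290 to 537 CPM in control and 1127 to 1720 CPM in mutant hearts. Of 15 hepatocyte markers 14 rose, with a summed level of 422 to 502 CPM in control and 4949 to 6726 CPM in mutant hearts. apoa1b went from 70.8 to 1897 CPM, and HNF4A was the 1 hepatocyte marker without a count in any control heart. Of 6 gut epithelium markers 3 rose, with cdh1 among them (1 without control replicate 3), at summed levels of 18.2 to 40.7 and 80.5 to 237 CPM. Erythroid markers fell in all 9 tested genes, 8 without control replicate 3, from 6645 to 11861 CPM down to 63.7 to 175 CPM summed, hbaa1 and cahz being the most abundant. No neuronal marker of 7 tested and no myocardial marker of 11 tested was called by edgeR, where 0 and 1 had an unadjusted p under 0.05 and DESeq2 called 0 and 2. Myocardial sums were nonetheless lower in every mutant (24532 to 40775 CPM) than in any control heart (48236 to 63384 CPM), and all 11 tested markers had negative fold changes (9 of 11 with scaling by library size alone). Neuronal sums were 27.4 to 45.8 and 26.1 to 55.2 CPM, with SYT1 and ELAVL4 the most abundant. The part of macrophage, liver and gut transcripts in the higher lyve1a, plvapa and plvapb was not tested.

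**Figure D4:**
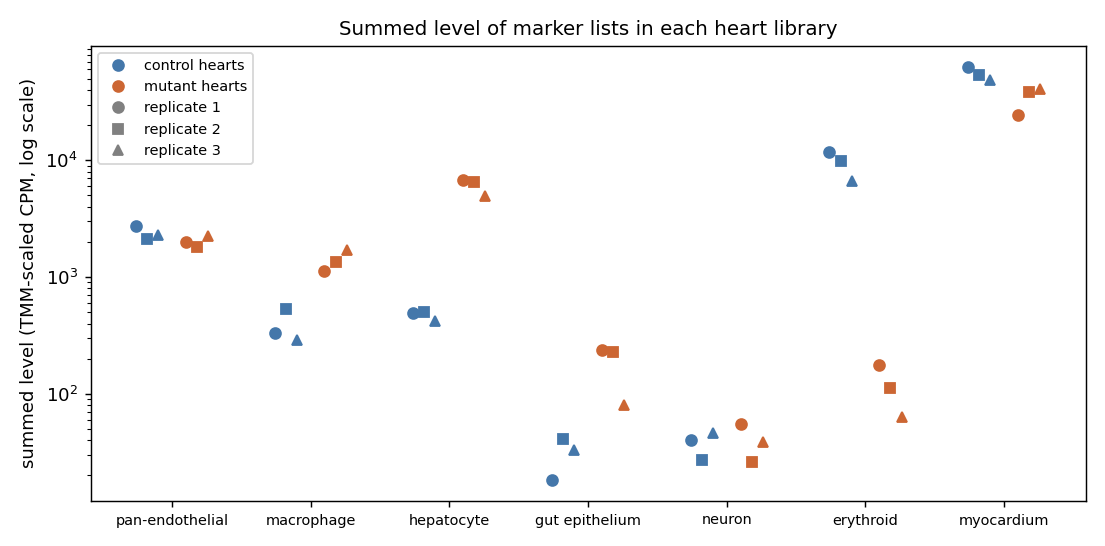
Summed level of 7 marker lists (x axis) in each heart library (y axis, TMM-scaled CPM on a log scale), with control and mutant hearts by colour and replicates by symbol. Macrophage, hepatocyte and gut sums are higher in all mutant hearts, erythroid and myocardial sums are lower in all mutant hearts, and pan-endothelial and neuronal sums overlap between the genotypes.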

How the data were processed

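RNA was measured in 6 heart libraries and 2 libraries labelled as embryos. The files deposited by the authors hold raw counts of reads for each gene ID. These were made with, per the submitters' processing notes, HTSeq 0.6.1p1, Bowtie2 2.2.3, TopHat2 2.2.1 and FastQC 0.11.5, on the GRCz10 build. Neither the annotation release nor the strand setting of the counting is given in the sources used here, and the library kit does not mark strand, so overlapping antisense reads cannot be told apart. Lines of unassigned reads, with 42.4% to 48.8% of each heart file's total in no feature, 11.1% to 21.8% not uniquely aligned and 0.601% to 1.08% ambiguous, entered neither library sizes nor tests. In the embryo-labelled files 10.0% and 9.53% was in no feature. Symbols came from a table naming 26121 of the 31953 IDs; a capital symbol can stand for several paralogs, and each ID then counted once per list.

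Control and mutant hearts were tested against each other in edgeR 4.0.16 (R 4.3.3) (filterByExpr with a minimum count of 10, TMM scaling, quasi-likelihood F test with group as the only term, Benjamini-Hochberg adjustment over all 16707 genes tested, threshold 0.05). Levels are TMM-scaled CPM, and fold changes are log2 of mutant over control, with the SE and 95% interval from the same test. Counting intervals of ratios are exact and cover counting error only. The steps were tested on simulated counts. Alternatives were DESeq2 1.42.0, other scalings and filters, a replicate block, each library left out in turn, and both libraries numbered 1 left out. No transcript lengths of the build were used, so levels were not ranked between genes. No 2 replicates agreed within sampling noise (chi-square per gene of 14.7 to 73.7).

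The 10 genes and all lists were chosen with earlier results of these data known. From each pathway, arterial or pan-endothelial list up to 4 called genes with the smallest adjusted p were named, with the 2 most abundant where fewer than 4 were called, and from each marker list the 2 most abundant (1 gene that this rule names is not reported here); other genes named were chosen after their values were seen (HNF4A and the other IDs of NRP2 and EFNB2). Embryo-labelled libraries, 1 per label, entered no test.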

Additional observations from a re-analysis of the deposited data

Results flagged for a closer look

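The library labelled mutant embryo entered no test and shares its total with control heart replicate 1. It held 3 of the 10 genes above the library labelled control embryo. Relative to the library labelled control embryo, the CPM of gene counts was 1.33 times as high for stab1 (exact 95% counting interval 1.25 to 1.42), 1.52 times as high for prox1a (1.39 to 1.68) and 1.36 times as high for ephb4a (1.22 to 1.52). The intervals cover counting error only, and there is 1 library per label. In the same files counts under the control and the mutant label were 214 and 3 for lyve1a, 120 and 0 for plvapa, and 738 and 104 for plvapb. By total counts the file labelled control embryo matches mutant heart replicate 1, and the file labelled mutant embryo matches control heart replicate 1. They are therefore no independent measure of the genotypes. In these hearts stab1, prox1a and ephb4a stood at 151, 73.0 and 56.1 CPM in control replicate 1. In mutant replicate 1 they stood at 97.1, 39.9 and 29.3 CPM. For the 10 genes mutant replicate 1 held 0.391 to 0.606 times the counts of its embryo-labelled match. Control replicate 1 held 38 flt4 counts against 53 in its own match, a ratio of 0.717, beside a median of 0.504 over all genes compared. Counting error was not set against this ratio. lyve1a, lyve1b and plvapa had at most 3 counts in either file, and the remaining members stood at 0.452 to 0.545.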

How the results depend on the processing

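The 3 genes called among the 10 (lyve1a, plvapa and plvapb) were called under DESeq2, RLE scaling, library size alone, both filters and the replicate block, and their number was 2 to 3 with 1 library left out. It was 2 without control replicate 2 and without both libraries numbered 1, where plvapa was lost. No member was called lower under any alternative run. With library size alone the median of all genes moved from -0.01 to 0.25 and 87.5% of calls were higher, against 74.4% with TMM; relative to that median stab2 was at -0.02 and prox1a at -0.12. Over all genes, 1172 higher and 404 lower calls became 443 to 1035 and 161 to 328 with 1 library left out. Lower calls numbered 697 with DESeq2 and 236 with library size alone. Deviations of same-numbered control and mutant hearts from their group means correlated at 0.0955, 0.22 and -0.08, so the numbers were not taken as pairs. With the replicate block 1033 genes were called higher and 443 lower, and the NRP2 call was lost. In that fit 1 of the 12 venous and lymphatic genes outside the 10 was called higher. The 4 higher and 3 lower pathway genes became 8 and 7 with DESeq2 and 9 higher with library size alone, and 0 to 4 higher and 0 to 5 lower with 1 library left out. Signs turned in genes that were not called: stab2 with library size alone (0.23) and on leaving out 1 library (control replicate 2 0.40, mutant replicate 2 0.02, mutant replicate 3 0.26; lowest of such fits -0.71); mrc1a (-0.13) and flt4 (-0.14) without mutant replicate 1 (highest of such fits 0.64 and 0.51), and flt4 without both libraries numbered 1 (-0.15). prox1a turned with library size alone (0.13), without control replicate 1 (0.12) or mutant replicate 1 (0.09; lowest of such fits -0.30), and without both (0.31). NFATC1 turned without mutant replicate 3 (-0.15; highest 0.65), NRP1 without control replicate 3 (-0.0094; highest 0.22), HAPLN1 with library size alone (0.17), without mutant replicate 1 (0.0024) and without both libraries numbered 1 (0.080), and CAV1 without control replicate 2 (-0.0098) or mutant replicate 1 (-0.045; highest 0.21). The cause was not tested. Counts of lyve1a, lyve1b and plvapa in controls, 1, 1 and 3 over 3 libraries, limit the size of their fold changes.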
